A study of Arabidopsis thaliana with 12 samples.

Results

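Transcripts of 3 plastid enzymes of Arabidopsis thaliana were followed from the end of the night into the first hour of light: AT-HF, also called HISN4 (AT4G26900), for histidine, APS4 (AT5G43780) for sulfate assimilation and THIC (AT2G29630) for thiamine. The members were taken as the array probes whose annotation lists exactly 1 gene, that gene being 1 of these 3, which gave 3 probes of 3439. The genes were chosen with their light and dark values in these same arrays known, so they are selected on the contrast described here, and their differences are given as a description without a test. All plants were wild type of the Columbia-0 ecotype. The 6 dark samples came from plants adapted to darkness overnight, and the 6 light samples from plants given 1 h of light after such a night. Plant age, tissue and harvest time are not given in the sources used here. In this design light and the time elapsed since the night cannot be told apart.

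AT-HF is the imidazole glycerol phosphate synthase of histidine synthesis, an enzyme that joins a glutamine amidotransferase part and a cyclase part in 1 protein. Its reaction makes the imidazole ring and releases an aminoimidazole carboxamide ribotide that goes back into purine synthesis. THIC makes the pyrimidine ring of thiamine from another purine intermediate, aminoimidazole ribotide, and its transcript is known in plants for a riboswitch that binds thiamine diphosphate. APS4 is an isoform of ATP sulfurylase, which activates sulfate so that it can be reduced for cysteine or used to sulfate other compounds. AT-HF and THIC thus touch purine synthesis on either side of the same stretch of the pathway, whereas APS4 opens a separate route.

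RNA was read on arrays that gave 1 relative intensity per probe, on a linear scale whose top is 100. The sum of an array lay between 2943 and 3683, with 11.7 to 15.7% of its probes exactly at 0. None of the 3 genes was at 0 in any array. Scaled intensity below means the value after quantile normalization between the 12 arrays, and log2 changes are light minus dark with the standard error of a limma fit on all 12 arrays. The labels do not state separate plants or cultures within a group, so these errors and the p-values given further on cover the spread among the arrays alone, and that spread could be technical. In RNA from whole samples, fewer cells of a type and less RNA per cell cannot be told apart. No leaf, root, guard cell, phloem, epidermis or pollen marker of the 17 listed was on a tested probe of its own, so the tissue could not be checked.

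All 3 transcripts were lower after 1 h of light, AT-HF by 3.65-fold, APS4 by 2.68-fold and THIC by 1.42-fold. The 3 probes were all among the 609 of 2966 tested probes (20.5%) that were called lower in light at an adjusted p of 0.05. In either direction 1198 probes were called (40.4%). Since this contrast chose the genes, nothing is read from that count. Each was also lower in light in 6 of 6 differences between arrays of the same replicate number, as were 22.9% of all probes tested. Nor is this count evidence about the genes. What distinguished them from one another was how far they fell and how evenly.

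AT-HF showed the cleanest separation of the groups. Its scaled intensity in the dark was lowest at 1.01, had a median of 1.11 and was highest at 1.16 (mean 1.099 ± 0.062, SD, n = 6). In light it was lowest at 0.213, had a median of 0.317 and was highest at 0.341 (mean 0.304 ± 0.047, SD, n = 6). The groups lay far apart, with the lowest dark array 2.97 times the highest light array. As deposited, before scaling, the probe read between 1.07 and 1.54 in the dark and between 0.239 and 0.336 in light, again with no overlap. The log2 change was -1.87 (SE 0.12), and 3.20% of all tested probes fell by more. Within the array as a whole, the probe moved from a median rank at the 90.1 percentile in the dark to the 59.1 percentile in light.

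After scaling, the spread of AT-HF was small and differed between the groups. On the log2 scale its SD was then 0.08 among the dark arrays and 0.25 among the light arrays. As deposited, the values were 1.327 ± 0.202 in the dark and 0.281 ± 0.033 in light (mean ± SD). The small dark spread therefore depends on the scaling. Dark replicates 5 and 6 were the 2 lowest of the dark group, at 1.01 and 1.03. After scaling, light replicate 3, at 0.213, lay apart from the other light arrays, which ran from 0.306 to 0.341. As deposited it was again the lowest, at 0.239, but the others ran from 0.268 to 0.336. Its distance from them therefore depends on the scaling. Without light replicate 3 the log2 change was -1.79.

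APS4 was lower in light in every array, but with a wide spread among the light arrays. Its scaled intensity in the dark was lowest at 0.275, had a median of 0.348 and was highest at 0.410 (mean 0.344 ± 0.049, SD, n = 6). In light it was lowest at 0.068, had a median of 0.134 and was highest at 0.206 (mean 0.139 ± 0.058, SD, n = 6). The groups did not overlap, although the gap was narrow, the lowest dark array being 1.33 times the highest light array. As deposited the probe ran from 0.253 to 0.500 in the dark and from 0.086 to 0.190 in light, with no overlap either. The log2 change was -1.42 (SE 0.27), and 6.78% of tested probes fell by more.

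The light arrays of APS4 were scattered. Light replicates 3 and 5 were low, at 0.068 and 0.084, while light replicates 2 and 6 were high, at 0.206 and 0.205. Neither the low nor the high arrays were consecutive numbers. By replicate number the log2 difference between light and dark therefore ran from -0.42 for number 6 to -2.601 for number 3. The log2 SD among light arrays was 0.66, against 0.21 in the dark. The lowest light array was still 10.0 times the floor of 0.0068 that was given to values below it.

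THIC showed the smallest change of the 3. Its scaled intensity in the dark was lowest at 0.307, had a median of 0.379 and was highest at 0.442 (mean 0.375 ± 0.057, SD, n = 6). In light it was lowest at 0.199, had a median of 0.277 and was highest at 0.327 (mean 0.265 ± 0.045, SD, n = 6). The groups overlapped, since light replicate 5, at 0.327, was above dark replicates 1 and 2, at 0.318 and 0.307. The other 5 light arrays lay below every dark array. As deposited, the values ran from 0.325 to 0.490 in the dark and from 0.184 to 0.302 in light and did not overlap. The log2 change was -0.51 (SE 0.14), and 26.5% of tested probes fell by more. Complete separation of the scaled light arrays below the dark arrays, which AT-HF and APS4 showed and THIC did not, was seen in 13.4% of all tested probes.

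**Figure D1:**
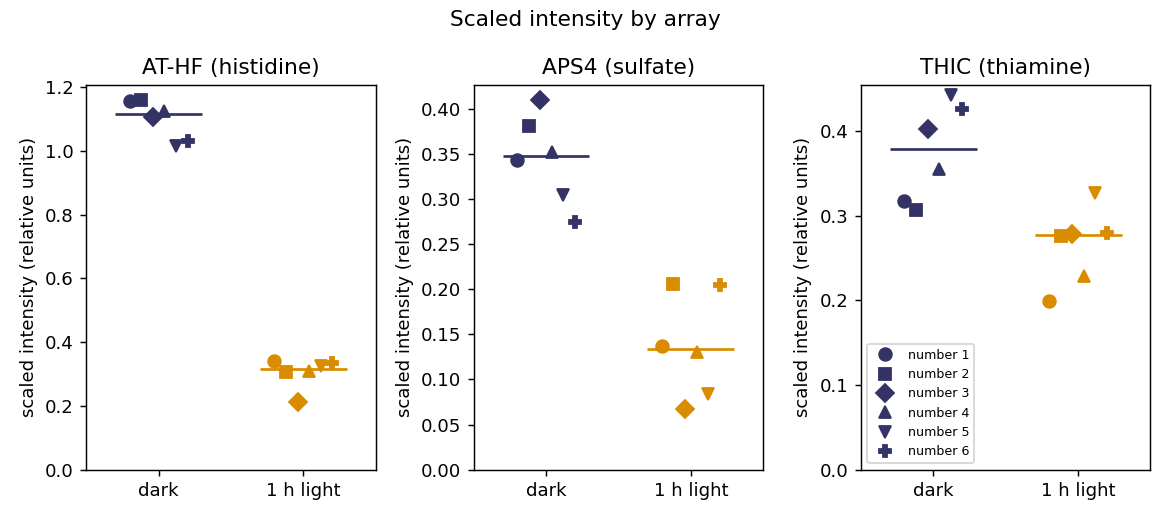
Scaled intensity (relative units, linear axis from 0) of AT-HF, APS4 and THIC in the 6 dark and 6 light arrays, with 1 symbol shape per replicate number and a bar at the median of each group. AT-HF falls from about 1.11 to 0.317 with a wide gap, APS4 from 0.348 to 0.134 with scattered light arrays, and THIC from 0.379 to 0.277 with light replicate 5 above dark replicates 1 and 2.

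After scaling, the dark and light arrays of THIC were partly ordered alike by replicate number. Numbers 5 and 6 were the highest of the dark group, at 0.442 and 0.426, and they were also the highest in light, at 0.327 and 0.279, although number 3 followed closely at 0.278. Number 1 was the lowest light array, at 0.199, and the next to lowest dark array. The differences by number accordingly ran only from -0.16 for number 2 to -0.68 for number 1. Before scaling, number 3 was the highest array of each group, reading 0.490 (dark) and 0.302 (light). Dark replicate 4 came next to it with 0.446, and light replicate 6 was next to lowest with 0.241. The top places of numbers 5 and 6 therefore depend on the scaling. Number 1 kept its places, with deposited values of 0.184 (light) and 0.337 (dark). With the replicate number as a block, the SE of the THIC change was 0.10 instead of 0.14. For AT-HF and APS4 the block did not lower the SE, which was 0.12 and 0.28.

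**Figure D2:**
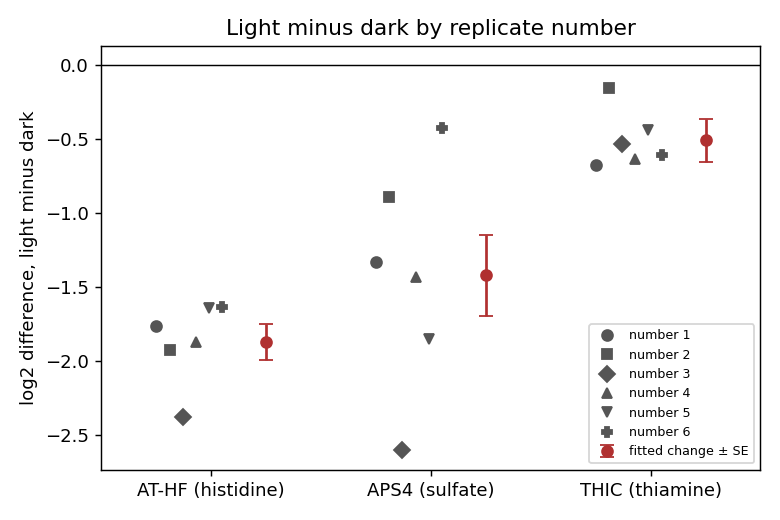
Log2 difference in scaled intensity, light minus dark, between arrays of the same replicate number for AT-HF, APS4 and THIC, with the fitted change and its SE from limma on all 12 arrays beside them in red. Every difference is below 0, with AT-HF between -1.63 and -2.38, APS4 between -0.42 and -2.601 and THIC between -0.16 and -0.68.

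The genes also differed in how their scaled values moved relative to one another inside each array. A shift common to all probes of an array cancels in such a ratio. Quantile normalization is not such a shift, so these ratios depend on it. On the values as deposited, the log2 changes were -2.23 for AT-HF, -1.46 for APS4 and -0.70 for THIC, with AT-HF further from both than after scaling. The log2 ratio of AT-HF to THIC was between 1.20 and 1.92 in the dark arrays and between -0.39 and 0.78 in the light arrays, with no overlap, and the change of AT-HF minus that of THIC was -1.36. The log2 ratio of APS4 to THIC lay between -0.63 and 0.31 in the dark and between -2.04 and -0.42 in light. These ranges overlapped, and the change of APS4 minus that of THIC was -0.91. The change of AT-HF minus that of APS4 was -0.45, while the ratio in the light arrays, from 0.57 to 1.95, spanned the 1.43 to 1.91 seen in the dark. These ratios rest on the values that chose the genes and were not tested.

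Once the group means were taken out, the 3 genes did not follow one course. Deviations from the group means over the 12 arrays correlated at 0.65 between AT-HF and APS4, at -0.35 between AT-HF and THIC and at -0.28 between APS4 and THIC. The first value shares light replicate 3, after scaling the lowest light array of both AT-HF and APS4. As deposited, APS4 read 0.086 in both light replicates 3 and 5. The 12 arrays include columns that may be repeat measurements, so these values only describe the arrays.

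The size of the fall depended on how the arrays were put on a common scale. For AT-HF the log2 change was -2.23 on the values as deposited, -2.12 after median centring of the arrays and -1.86 after centring them on the 75th percentile. For APS4 the same settings gave -1.46, -1.35 and -1.09. For THIC they gave -0.70, -0.58 and -0.33. As deposited the median log2 change of all tested probes was -0.21, and with the 75th percentile it was 0.16, so part of these shifts is common to the array. All 3 genes were lower in light under each of the 28 other settings. The count of 3 called probes given above became 2, without THIC, in 4 of these settings, namely with the 75th percentile, with consecutive replicate numbers averaged, without numbers 3 and 4 and without numbers 5 and 6. As before, the contrast chose the genes, so these calls are not read as a difference between them.

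**Figure D3:**
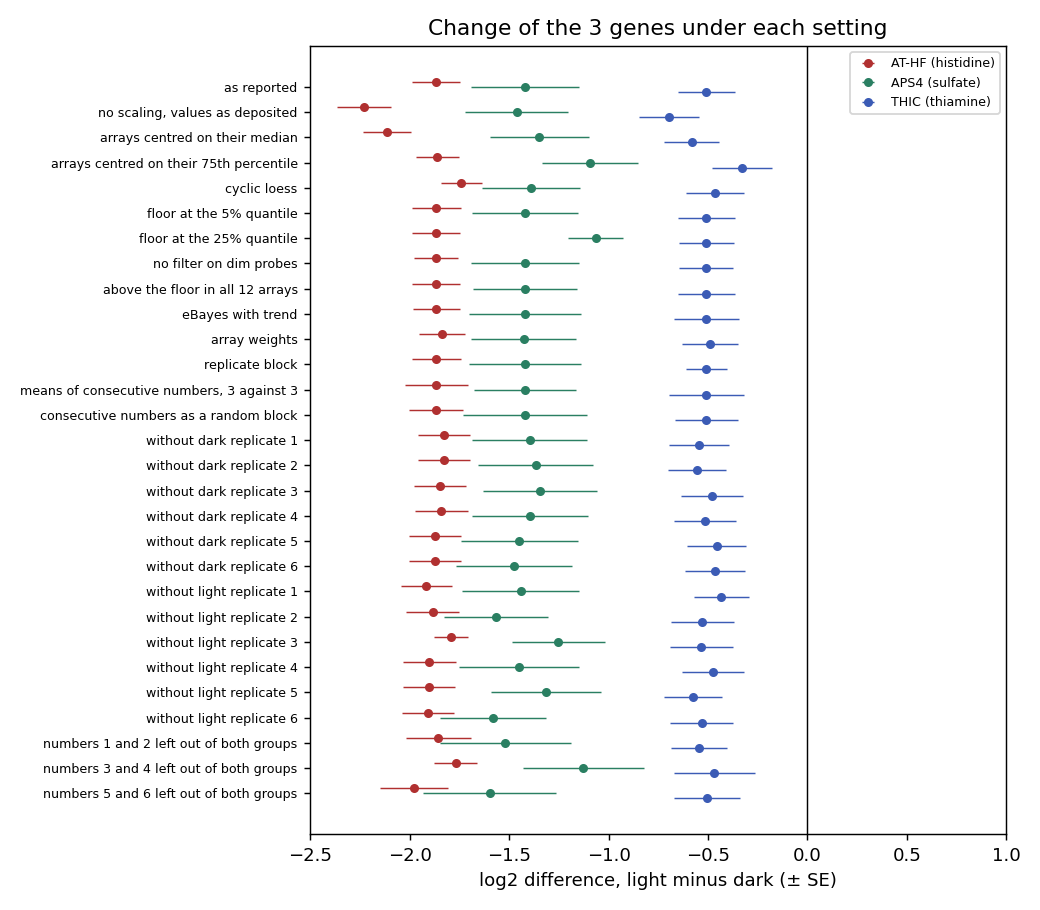
Log2 change, light minus dark, with its SE (horizontal bars) for AT-HF, APS4 and THIC under the reported setting and 28 others, 1 line per setting. The 3 genes keep their order in each line, AT-HF from -1.74 to -2.23, APS4 from -1.07 to -1.60 and THIC from -0.33 to -0.70, and no point reaches 0.

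The rest of the 3 pathways was sparsely covered by probes that could be named. Of 100 loci in 6 lists for histidine, sulfate, cysteine with methionine and glutathione, thiamine, thiamine diphosphate dependent enzymes and purines, 14 were listed for any probe. Beside the 3 genes, 4 were tested on a probe of their own and none of them was called by limma (0 of 4, against 42.6% of the 598 tested probes that list 1 gene; 0 had an unadjusted p under 0.05). A further 4 tested probes list 2 genes of the same list and no other gene, and 1 of these was called, against 40.4% of all tested probes. The median log2 change of the 8 probes was -0.21, against -0.01 over all tested probes. For sulfate uptake and assimilation, 27 loci with the transporters, the other ATP sulfurylases, the reductases and the kinases, APS4 was the 1 gene covered. For thiamine synthesis, with 6 loci, THIC was the 1 gene covered.

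In histidine synthesis the probe that was called lists both HISN5A and HISN5B, the dehydratases that take up the product of AT-HF in the next step. It cannot be assigned to 1 of them. Its scaled intensity in the dark was lowest at 0.897, had a median of 1.01 and was highest at 1.11. In light it was lowest at 0.255, had a median of 0.409 and was highest at 0.578. The groups did not overlap, and the log2 change was -1.37 (SE 0.19, limma adjusted p = 1.4e-04), lower in light in 6 of 6 light arrays. The call held under all 28 other settings, with log2 changes from -1.24 to -1.79 and adjusted p from 4.4e-06 to 0.0070. Shared probes were added after the values were seen, so this call and its p-values are a description and not a planned test.

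A second probe with the same 2 genes did not behave like the first. It was dim, between 0.0067 and 0.174 in the dark and between 0.062 and 0.158 in light, was listed at 0 in dark replicate 1, and did not pass (log2 change 0.24, SE 0.71, limma adjusted p = 0.82). Without dark replicate 1 its log2 change was -0.46 (adjusted p = 0.18), and without numbers 1 and 2 of both groups it was -0.86 (adjusted p = 0.0037), the lowest adjusted p among 26 alternatives, whose highest was 0.98. The 2 probes of these genes thus disagreed in the fit on all arrays. Over the 12 arrays the first shared probe correlated with AT-HF at 0.90, a value that 184 other probes of 2963 exceeded, and the deviations from the group means correlated at 0.09. The likeness of the first probe to AT-HF therefore lay in the difference between the groups.

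For purine synthesis, the pathway that AT-HF feeds and THIC draws on, 3 single-gene probes and 1 shared probe were tested. None of them was called, against 40.4% of all tested probes. Probes that list a gene outside the purine list were not counted. Of these, the probe listing AT2G37690 and AT2G05140 was lower in light and just missed the threshold (limma adjusted p = 0.054). The probe listing AT1G31220 with AT5G47435 and AT4G17360 was not called either (limma adjusted p = 0.64). PUR3 (AT1G31220), which formylates an early intermediate, went from 0.248 ± 0.070 to 0.3004 ± 0.0339 (SD, n = 6; log2 change 0.32, limma adjusted p = 0.19), and its log2 change ran from 0.18 without dark replicate 4 to 0.41 without dark replicate 2 when 1 array was left out. Of the enzymes that make phosphoribosyl diphosphate, the starting sugar of both purine and histidine synthesis, PRS1 (AT2G35390) was at 0.408 ± 0.023 and 0.397 ± 0.056 (log2 change -0.05, limma adjusted p = 0.75), and PRS5 (AT2G44530) was at 0.229 ± 0.070 and 0.160 ± 0.067 (log2 change -0.58, limma adjusted p = 0.18). Without light replicate 3 the log2 change of PRS5 was -0.37. A probe listing AT1G36280 and AT4G18440, for adenylosuccinate lyase, had a log2 change of -0.16 (limma adjusted p = 0.72), and a second probe of these genes was listed at 0 in 7 of 12 arrays and was not tested. With arrays centred on the 75th percentile PUR3 was higher in light (log2 change 0.54, limma adjusted p = 0.042), the lowest adjusted p among its 28 alternatives, which reached 0.77.

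Downstream of sulfate reduction, CBL, the cystathionine beta-lyase of methionine synthesis, averaged 0.148 ± 0.052 in darkness and 0.125 ± 0.043 after light (SD, n = 6; log2 change -0.26, limma adjusted p = 0.50). When 1 array was left out its log2 change ran from -0.40 without dark replicate 4 to -0.097 without light replicate 1, and it was -0.12 without dark replicate 5. Among enzymes that use thiamine diphosphate, a probe listing AT5G65750 and AT3G55410, for the first subunit of 2-oxoglutarate dehydrogenase, had a log2 change of -0.72 (SE 0.35, limma adjusted p = 0.12). Without light replicate 3 alone its log2 change was -0.39 (limma adjusted p = 0.11). Its light arrays ran from 0.061 to 0.335 and overlapped the dark arrays, from 0.254 to 0.372. On the values as deposited this probe was lower in light (log2 change -0.84, limma adjusted p = 0.036), and likewise with the floor at the 25% quantile (log2 change -0.51, limma adjusted p = 0.035), and its adjusted p was 0.39 at most among the alternatives.

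**Figure D4:**
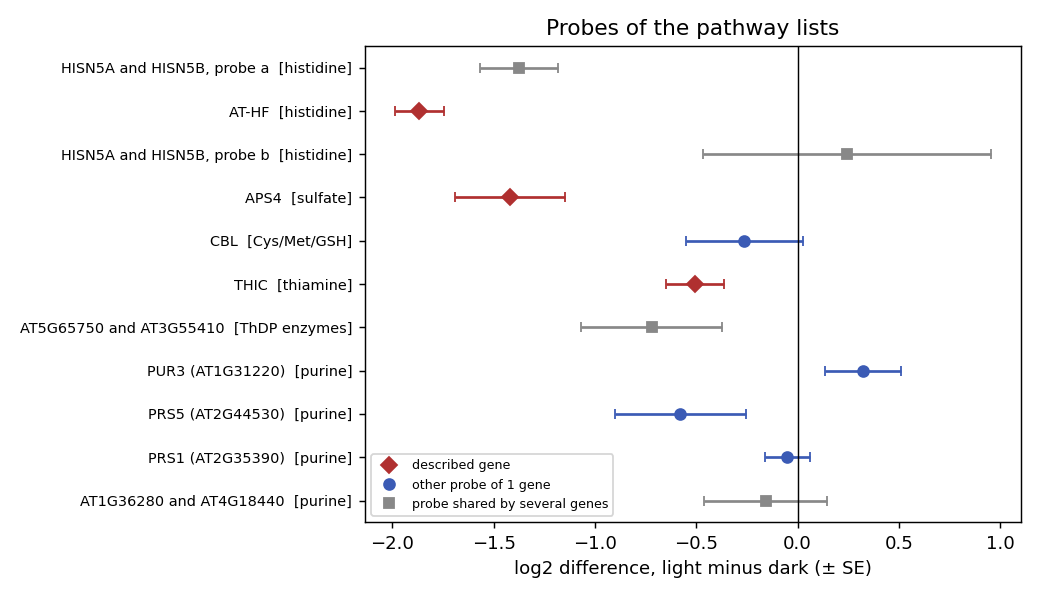
Log2 change, light minus dark, with its SE for the 11 tested probes of the pathway lists (list in brackets). Red diamonds are AT-HF, APS4 and THIC, blue circles other probes of 1 gene and grey squares probes shared by 2 genes. AT-HF, APS4 and the first shared HISN5 probe lie below -1.3, and the second shared HISN5 probe has the widest error.

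Among the 595 other tested single-gene probes, those most like each gene over the 12 arrays were named by Pearson's r of the log2 values, in which the difference between groups weighs heavily. For AT-HF they were HEMA3, a glutamyl-tRNA reductase gene (r = 0.99), AT1G51350 (r = 0.98) and AT4G31530 (r = 0.98). AT1G51350 fell about as far as AT-HF (log2 change -1.81), and HEMA3 and AT4G31530 had log2 changes of -0.83 and -0.86. For APS4 they were AT4G33480 (r = 0.94), AT1G62150 (r = 0.91) and DI21 (r = 0.91), named for induction by drought, whose log2 change was -2.85. For THIC they were AT4G04370 (r = 0.96), AT4G21170 (r = 0.89) and AT2G31920 (r = 0.89), with log2 changes from -0.54 to -0.73.

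Ranking by deviations from the group means gave mostly other genes. For AT-HF these were GH9B16 (r = 0.95), AT1G28150 (r = 0.92) and AT3G21810 (r = 0.92), and for APS4 AT2G19870 (r = 0.83), AT2G28660 (r = 0.79) and GLR2.7 (r = 0.77), a glutamate receptor-like gene. AT2G19870 had a log2 change of 0.59, opposite in sign to that of APS4. For THIC they were AT4G04370 (r = 0.90), AT5G40140 (r = 0.89) and AT5G41960 (r = 0.84). AT4G04370 alone was named for the same gene by both measures.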

How the data were processed

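The deposited table holds 1 relative intensity per probe and array. The sources used here do not say how the authors scanned, background-corrected or scaled these intensities. Column medians ran from 0.204 to 0.289, so arrays were taken as not normalized and quantile normalization was applied. A floor of 0.0068, the 1% quantile of the values above 0, was set before log2 was taken, and 473 probes were dropped because over 6 of their 12 values lay at it. Light was compared with dark over the other 2966 with limma 3.58.1 under R 4.3.3 (lmFit, eBayes, two-sided), with Benjamini-Hochberg adjustment over all of them and a threshold of 0.05. On simulated data for light against dark over 2966 probes, it found 61 of 100 probes shifted by 1 log2 unit and 75 of 100 shifted by 2, with 4 false calls among 2766 unchanged probes. The simulated arrays were independent of one another, whereas the real arrays were correlated by replicate number. These counts therefore do not give the error rate for the real arrays. Figures were drawn with matplotlib 3.10.9.

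Gene names come from an old platform annotation matched by gene identifier to a TAIR10.1 gene table. A single gene is listed for 692 probes (690 matched) and several genes for 870, and 1877 probes are not named here. The named genes are AT-HF, APS4 and THIC, each list member on a tested single-gene probe, and the 3 likest genes by each of 2 measures. The members and lists were chosen with earlier results of these data known, and probes shared by several genes of 1 list were added after the values were seen. The histidine list carried AT3G02870 for HISN7, which the table gives as AT4G39120, and no probe lists either. Sequences of the genes are not used here.

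Both groups use the same replicate numbers. For arrays of the same number, deviations from the group means correlated at 0.174 to 0.320, and 6 of 6 dark arrays correlated best with the light array of their own number, so the numbers pair the arrays, on evidence from the values and not the labels. Within a group, consecutive numbers (1 and 2, 3 and 4, 5 and 6) correlated at -0.06 or more in these deviations and other columns at -0.14 or less, so means of consecutive numbers were tried. The 28 alternatives cover scaling, floor, filter, variance model, array weights, replicate block, consecutive numbers and arrays left out. The number of arrays limits the precision.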

Additional observations from a re-analysis of the deposited data

Results flagged for a closer look

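Among 22 sets of 6 log2 values, 4 held an array set apart by a large share of the group's whole range, where chance gives about 1 set in 20. AT-HF in light replicate 3 stood at -2.23 after scaling, below a median of -1.62 for the other light arrays. As deposited, AT-HF in this array read 0.239, less far from the other light arrays, which ran from 0.268 to 0.336. The second probe of HISN5A and HISN5B, in dark replicate 1, was at the floor, -7.21, against -2.82. The probe of AT5G65750 and AT3G55410 in light replicate 3 was at -4.03 against -2.22, and the tested probe of AT1G36280 and AT4G18440 in light replicate 4 at -3.99 against -2.14.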

How the results depend on the processing

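Under the 28 alternatives 814 to 1349 probes were called (1198 as reported), and 1094 to 1174 when any 1 array was left out. Leaving out any 1 array, the log2 change of AT-HF ran from -1.92 to -1.79, of APS4 from -1.58 to -1.25 and of THIC from -0.58 to -0.43. AT-HF moved by more than its spread between arrays on the values as deposited (-2.23) and with median centring (-2.12). The replicate block called 1314 probes and changed no call among the 3 genes or the lists. Called probes of 1 gene in the lists went from 0 to 1 with the 75th percentile, and with shared probes from 1 to 2 as deposited, with the 75th percentile, with the floor at the 25% quantile and without numbers 1 and 2. Signs turned for 4 probes not called as reported, and 1 of them, the second HISN5 probe, was called lower without numbers 1 and 2. With the 75th percentile CBL was at 0.18, PRS1 at 0.037 and the AT1G36280 and AT4G18440 probe at 0.21. PRS1 was at 0.0040 with cyclic loess and 0.054 without numbers 5 and 6, and from -0.090 to 0.029 when 1 array was left out, above 0 without light replicate 6. The AT1G36280 and AT4G18440 probe was at 0.043 with the floor at the 25% quantile and 0.039 without numbers 3 and 4, and from -0.27 to 0.14 when 1 array was left out, above 0 without light replicate 4. The second HISN5 probe was at -0.15 with the floor at the 5% quantile, -0.023 with array weights and -0.86 without numbers 1 and 2, and from -0.46 to 0.46 when 1 array was left out, below 0 without dark replicate 1. Settings that left it untested were the floor at the 25% quantile and probes above the floor in all 12 arrays, and the first of these left CBL untested too. The causes were not tested.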
